A study of Drosophila melanogaster with 12 samples.

Results

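The genes described here encode structural proteins of the Drosophila eggshell. They were chosen by symbol from the Release 6 annotation as genes expressed by late follicle cells, and comprised 6 chorion genes (Cp15, Cp16, Cp18, Cp19, Cp36 and Cp38), 3 vitelline membrane genes (Vm26Aa, Vm26Ab and Vm34Ca) and dec-1. All 10 were found among the 17023 FlyBase genes counted. The data were 12 polysome-seq libraries of ovaries from 3 genotypes, with 2 input and 2 polysome libraries each, in which 20% of a lysate was kept as input and the remainder was sedimented through a sucrose gradient to isolate mRNAs bound by several ribosomes. The young control (the germarial control, UAS-Dcr2;nosGAL4) carried the germline driver nosGAL4 and was taken from newly eclosed females. Nop60B RNAi carried a hairpin against Nop60B, the pseudouridine synthase of the H/ACA snRNP complex, under the same germline driver, and was likewise taken from newly eclosed females. The cyst control, nosGAL4>bam RNAi;hs-bam, received repeated heat shocks that induce bam, which drives cystoblasts, the daughters of germline stem cells, to form cysts. These flies were older than the others, by the study's methods, so age, genotype and heat shock cannot be told apart in comparisons with this control. Ovaries of many females were pooled for a lysate of the young control or of Nop60B RNAi. RNAi was driven in the germline, whereas the eggshell is made mainly by somatic follicle cells.

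The eggshell is laid down around the growing oocyte by a single layer of somatic follicle cells. These cells first secrete the vitelline membrane, the inner layer next to the oocyte, and later the chorion, the outer layers with their air-filled struts. The major chorion genes lie in clusters on the X chromosome and the left arm of chromosome 3 that are amplified in late follicle cells before transcription peaks, and the X-linked genes are generally expressed before the genes on chromosome 3. dec-1 encodes secreted proteins that are cleaved in the forming eggshell and are needed for its assembly. mRNAs of these genes therefore mark egg chambers of successive late stages.

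In the Release 6 coordinates (dm6), Cp18, Cp15, Cp19 and Cp16 followed each other on the forward strand of chromosome arm 3L within chr3L:8726791-8732599, each with 2 exons. Cp36 (chrX:8479319-8480523) and Cp38 (chrX:8481837-8483311) were neighbours on the forward strand of X and also had 2 exons. Both lie inside CG33223 on the other strand, which reached at most 9.95 CPM (counts scaled to a common library size) in any library. Vm26Aa (chr2L:5959596-5960340, reverse strand), Vm26Ab (chr2L:5957004-5957639, forward strand) and Vm34Ca (chr2L:13411141-13411631, reverse strand) each had 1 exon. dec-1 (chrX:7867161-7873222, reverse strand, 4 exon blocks) overlaps a noncoding RNA on the other strand. The library kit retained strand, but the strand setting of the counting is not given in the sources used here, so reads of these 3 X-linked genes and of the genes opposite them may not be told apart.

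The promoters are shown because a short element was shared by the chorion genes and absent from most other genes. The hexamer TCACGT was set before the search and is known from studies of chorion promoters, so matches in chorion genes were likely in advance. It was searched on both strands in the 250 bases before each annotated start. It was present in 7 of the 10 genes, in all 6 chorion genes at 59 to 79 bases before the start and in Vm34Ca at 114 bases. Vm26Aa, Vm26Ab and dec-1 had no match in this window. Of the 16 other eggshell genes listed for comparison, 2 held the hexamer (Cp7Fc and Vml), and of 13968 protein-coding genes 722 did (5.17%). The 30 bases around each match, from the NCBI RefSeq genome of the same build, are printed with the hexamer in capitals.
Cp36, chrX:8479245-8479274, forward strand: aatggagatggaTCACGTagccggccatgg
Cp38, chrX:8481760-8481789, forward strand: tcaatccaaatgTCACGTacccggagccgg
Cp18, chr3L:8726714-8726743, forward strand: gcatcatattcgTCACGTaagagttgggcc
Cp15, chr3L:8728410-8728439, forward strand: agtgtatataggTCACGTaaatgtccaggc
Cp19, chr3L:8729793-8729822, forward strand: ttctgggcgagaTCACGTttcgagtgcaac
Cp16, chr3L:8731853-8731882, forward strand: gaggtggtttggTCACGTctggtgagctca
Vm34Ca, chr2L:13411728-13411757, reverse strand: aaaaagcgccacTCACGTcgacttcgaggg
Outside the hexamer the flanks differed between the genes. A match describes these letters only, and binding by a factor was not measured.

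The vitelline membrane genes shared a stretch of coding sequence instead. Their predicted proteins, of 141 (Vm26Aa), 168 (Vm26Ab) and 119 (Vm34Ca) residues, each held 1 run of a cysteine, 7 residues, a cysteine, 8 residues and a cysteine, which marks the conserved domain of the vitelline membrane proteins. The same spacing was present in Vm26Ac, Vm32E and Vml among the other eggshell genes, and in none of the 6 chorion proteins. From the first to the second of these cysteines, the 27 coding bases were identical in the 3 genes, and they are printed with the cysteine codons in capitals.
Vm26Aa, chr2L:5960005-5960031, reverse strand: TGCcccaagaactacctgttcagcTGC
Vm26Ab, chr2L:5957432-5957458, forward strand: TGCcccaagaactacctgttcagcTGC
Vm34Ca, chr2L:13411337-13411363, reverse strand: TGCcccaagaactacctgttcagcTGC
The longest run of identical bases between exons of any pair of the 10 genes was 38 bases, shared by Vm26Aa and Vm34Ca. This is shorter than the 75-base reads, so a perfectly matched read within these exons could come from only 1 of the 10 genes.

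Library totals ranged from 2780781 to 21626125 counts, with a median of 13615213. The smallest was replicate 1 of the cyst control polysomes, in which 7394 genes had counts. The cyst control replicates stood apart from each other. Among 6987 genes with a mean of at least 10 CPM, 4.94% were at least 4-fold higher in input of replicate 2 than of replicate 1 and 3.15% at least 4-fold lower, while in polysomes these shares were 27.3% and 8.79%. The titles of the first cyst control pair follow another numbering than those of all other libraries. Nop60B itself stood at 446 to 473 CPM in the 4 Nop60B RNAi libraries, below the young control (1553 to 1906 CPM), and overlapped the cyst control (336 to 748 CPM). Levels below are CPM after TMM scaling, which corrects library sizes for composition.

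Chorion mRNAs were almost absent from the young control, low in Nop60B RNAi and most abundant in the cyst control. The 6 genes together took 2.27 to 4.99 CPM in the 4 young control libraries, 7.87 to 120 CPM in Nop60B RNAi and 105 to 2777 CPM in the cyst control. The vitelline membrane genes followed another order, with 111 to 345 CPM in the young control, 15.8 to 154 CPM in Nop60B RNAi and 591 to 2668 CPM in the cyst control. From these whole-ovary libraries alone, fewer egg chambers of a stage and less mRNA per egg chamber cannot be told apart. By imaging, the study reports that germline depletion of the complex blocked the passage from cyst to egg chamber, with egg chambers absent. The part of this block in the levels was not tested here.

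**Figure D1:**
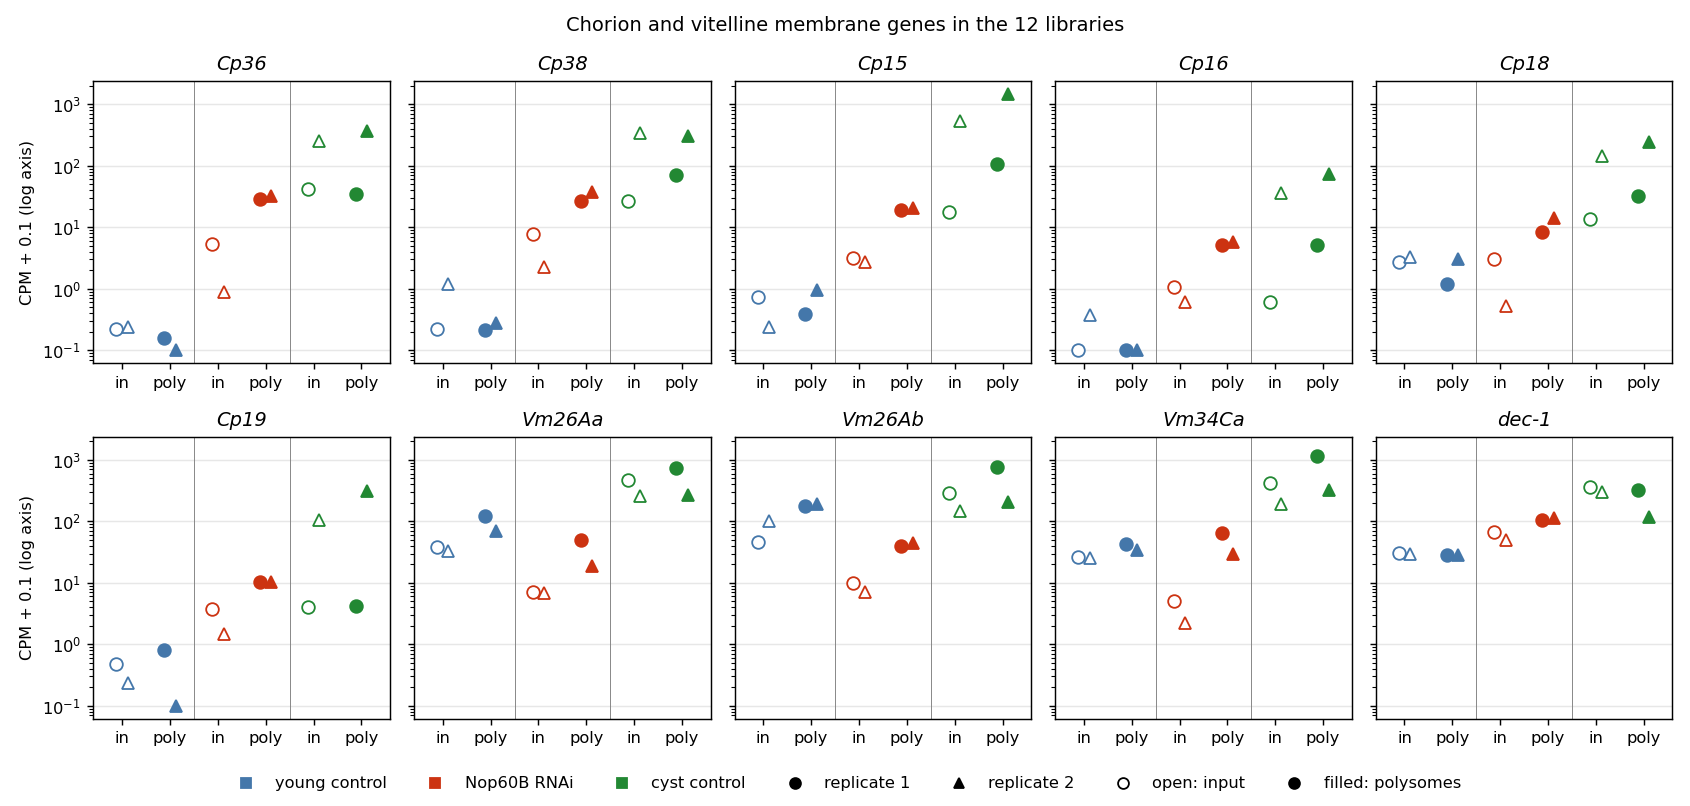
CPM of each gene in the 12 libraries, plotted as CPM + 0.1 on a log axis, with open symbols for input, filled symbols for polysomes, circles for replicate 1 and triangles for replicate 2. Chorion genes are near the bottom of the axis in the young control, and in the cyst control replicate 2 lies above replicate 1, whereas for the vitelline membrane genes and dec-1 replicate 2 lies below replicate 1.

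Cp36, an early chorion gene and a major component of the chorion, had 0.125 and 0.135 CPM in the young control inputs and 0.0581 and 0 CPM in its polysomes. In Nop60B RNAi it had 5.24 and 0.787 CPM in input and 28.9 and 32.2 CPM in polysomes. Its cyst control levels were 42.6 and 254 CPM in input and 34.8 and 363 CPM in polysomes. The 3 genotypes did not overlap in either fraction, and the young control values rest on 1 count in each of 3 libraries. Cp38, its neighbour and likewise an early chorion gene, had 0.125 and 1.08 CPM in the young control inputs, 7.59 and 2.15 CPM in the Nop60B RNAi inputs and 26.9 and 341 CPM in the cyst control inputs. Its polysome values were 0.116 and 0.173 CPM, 26.6 and 37.3 CPM, and 70.1 and 302 CPM in the same order. Again no value of a genotype reached the range of another.

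Cp15, the most abundant of the late chorion genes on 3L, had 0.623 and 0.135 CPM in input and 0.291 and 0.865 CPM in polysomes of the young control. In Nop60B RNAi it had 3.11 and 2.65 CPM in input and 18.9 and 20.5 CPM in polysomes, and only the polysome difference passed the test given below. The cyst control had 17.7 and 537 CPM in input and 107 and 1482 CPM in polysomes. Cp19, a further late chorion gene, had at most 0.697 CPM in the young control, 3.72 and 1.36 CPM in input and 10.3 CPM in both polysome libraries of Nop60B RNAi. Its cyst control values were 4.02 and 107 CPM in input and 4.07 and 315 CPM in polysomes. For this gene, replicate 1 of the cyst control lay just above Nop60B RNAi in input and below it in polysomes, and replicate 2 was far above it in both. Cp16 had at most 0.269 CPM in the young control (2 counts), 0.501 to 5.62 CPM in Nop60B RNAi and 0.516 to 72.8 CPM in the cyst control. Cp18 was the chorion gene with the highest level in the young control, 2.62 and 3.23 CPM in input and 1.1 and 2.9 CPM in polysomes. Its Nop60B RNAi inputs, at 2.96 and 0.429 CPM, overlapped the young control, while its Nop60B RNAi polysomes, at 8.35 and 14.3 CPM, did not.

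Vm26Aa, a major vitelline membrane protein gene, had 38.7 and 32.5 CPM in the young control inputs, 6.91 and 6.65 CPM in the Nop60B RNAi inputs and 468 and 255 CPM in the cyst control inputs. In polysomes it had 122 and 68.5 CPM, 49 and 18.6 CPM, and 727 and 269 CPM. Nop60B RNAi was the lowest genotype in both fractions. Vm26Ab, transcribed from the opposite strand nearby, had 46.3 and 101 CPM, 9.79 and 7.01 CPM, and 292 and 147 CPM in the inputs of the 3 genotypes, and 181 and 189 CPM, 40.3 and 43.8 CPM, and 779 and 204 CPM in their polysomes. Vm34Ca had 25.8 and 25.3 CPM in the young control inputs and 4.93 and 2.15 CPM in the Nop60B RNAi inputs. Its polysome values, 42.7 and 33.8 CPM in the young control and 64.5 and 29.8 CPM in Nop60B RNAi, overlapped, unlike its input values. Vm34Ca reached 416 and 189 CPM in input and 1162 and 327 CPM in polysomes of the cyst control.

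By mean level, dec-1 had the chorion genes' order of genotypes, apart from that of Cp18 in input. The young control was lowest and the cyst control highest, but dec-1 was detected throughout the young control. It was even in the young control, at 30.3 and 29.6 CPM in input and 28.4 CPM in both polysome libraries. In Nop60B RNAi it had 66 and 49.8 CPM in input and 105 and 112 CPM in polysomes, and in the cyst control 359 and 304 CPM in input and 326 and 119 CPM in polysomes. The genotypes did not overlap in either fraction. Per kilobase of exon, which allows levels of different genes to be compared, dec-1 stood at 57.6 CPM per kb on average in the cyst control inputs, against 617 for Vm34Ca, 539 for Cp15, 485 for Vm26Aa, 345 for Vm26Ab, 147 for Cp38, 133 for Cp36, 121 for Cp18, 85.1 for Cp19 and 35.6 for Cp16. In the young control inputs the order was Vm26Ab (116), Vm34Ca (52.1), Vm26Aa (47.8), dec-1 (5.21) and Cp18 (4.51), with every other chorion gene under 1 CPM per kb. The order of means in the cyst control inputs was not that of each replicate. Cp15 stood at 34.5 and 1043 CPM per kb in replicates 1 and 2, and in replicate 1 it was below Cp36 (38.2) and dec-1 (62.4).

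The first comparison asks how Nop60B RNAi ovaries differ from young control ovaries of the same age. A gene was called when it differed at least 2-fold with an unadjusted P under 0.05 in edgeR's quasi-likelihood test over 10035 genes. These are the study's criteria for polysome-seq, whereas for RNA-seq it states a false discovery rate of 0.05. Adjusted values are Benjamini-Hochberg. All 10 genes passed the filter on low counts, 5 of the chorion genes only through the other genotypes. Only Cp18 among the chorion genes reached the filter's level in both libraries of a young control fraction. For the 5, the filter thus favoured in advance a call higher than the young control, in both fractions. In input, the 3 vitelline membrane genes were called lower, where 6.35% of all genes were, and Cp36 and Cp38 were called higher, where 11.5% of all genes were. Vm26Ab fell by 3.13 ± 0.63 (log2, standard error; adjusted p = 0.0242, edgeR), Vm34Ca by 2.85 ± 0.68 (adjusted p = 0.0433) and Vm26Aa by 2.39 ± 0.59 (adjusted p = 0.0484). None of these 3 genes kept an adjusted p under 0.05 in every alternative fit. Cp36 and Cp38 had edgeR adjusted p-values of 0.16 and 0.223, and their fold changes of 4.44 and 3.02 (log2) rest on 2 and 9 counts in the young control. Cp36 lost its call in the fit of only the libraries compared. Its call was also lost when either young control input, or Nop60B RNAi input replicate 1, was left out. Cp38 lost its call when young control input replicate 1, Nop60B RNAi input replicate 1 or either Nop60B RNAi polysome library was left out. The counts of Cp36 alone (80 against 2) correspond to a ratio of 22.8, with a 95% exact interval of 6.1 to 191 for counting error only. dec-1 differed by 0.95 ± 0.42 (log2), under the 2-fold limit.

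In polysomes, 6 genes were called higher in Nop60B RNAi (Cp15, Cp16, Cp19, Cp36, Cp38 and dec-1), where 14.1% of all genes were, and Vm26Aa and Vm26Ab were called lower, where 11.7% of all genes were. Cp36 (adjusted p = 0.0124, edgeR), Cp38 (adjusted p = 0.0152) and dec-1 (adjusted p = 0.0238) also passed an adjusted threshold of 0.05. None of these genes kept an adjusted p under 0.05 in every alternative fit. dec-1 rose by 1.93 ± 0.43 (log2). Cp38 rose by 7.67 ± 1.50 (log2), which corresponds to 1041 counts against 6, a ratio of 215 (95% exact interval 98.5 to 587, counting error only). For Cp36 the counts were 995 against 1, a ratio of 1233 with an interval of 221 to 48756, so the size of that change is known only roughly. Cp16 had 175 counts in Nop60B RNAi polysomes and 0 in the young control, and was at least 72.3-fold higher when the young control was set at 3 counts over the group. Cp15 rose by 5.03 ± 1.53 (log2; adjusted p = 0.065) and Cp19 by 4.92 ± 2.03 (adjusted p = 0.143), which was not called without young control replicate 2 or without either Nop60B RNAi polysome library. Vm26Ab fell by 2.14 ± 0.60 (log2; adjusted p = 0.0519) and Vm26Aa by 1.49 ± 0.57 (adjusted p = 0.12), which was not called without young control replicate 1 or Nop60B RNAi replicate 2. Cp18 differed by 2.49 ± 1.23 and Vm34Ca by 0.30 ± 0.62 without being called.

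Markers of other cell types moved with this comparison. Of 6 hemocyte markers 5 were called higher in input and 6 in polysomes, of 6 muscle markers 6 and 5, and of 6 germline markers 5 were called lower in each fraction. Among all genes, 11.5% in input and 14.1% in polysomes were called higher, and 6.35% and 11.7% lower. No hemocyte or muscle marker was at 0 in these libraries. The hemocyte markers summed to 72.8 to 88.2 CPM in the young control and 1334 to 3040 CPM in Nop60B RNAi, the muscle markers to 4625 to 5505 CPM and 26388 to 32640 CPM, and the germline markers to 2084 to 3437 CPM and 124 to 136 CPM. Their part in the differences of the eggshell genes was not tested.

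**Figure D2:**
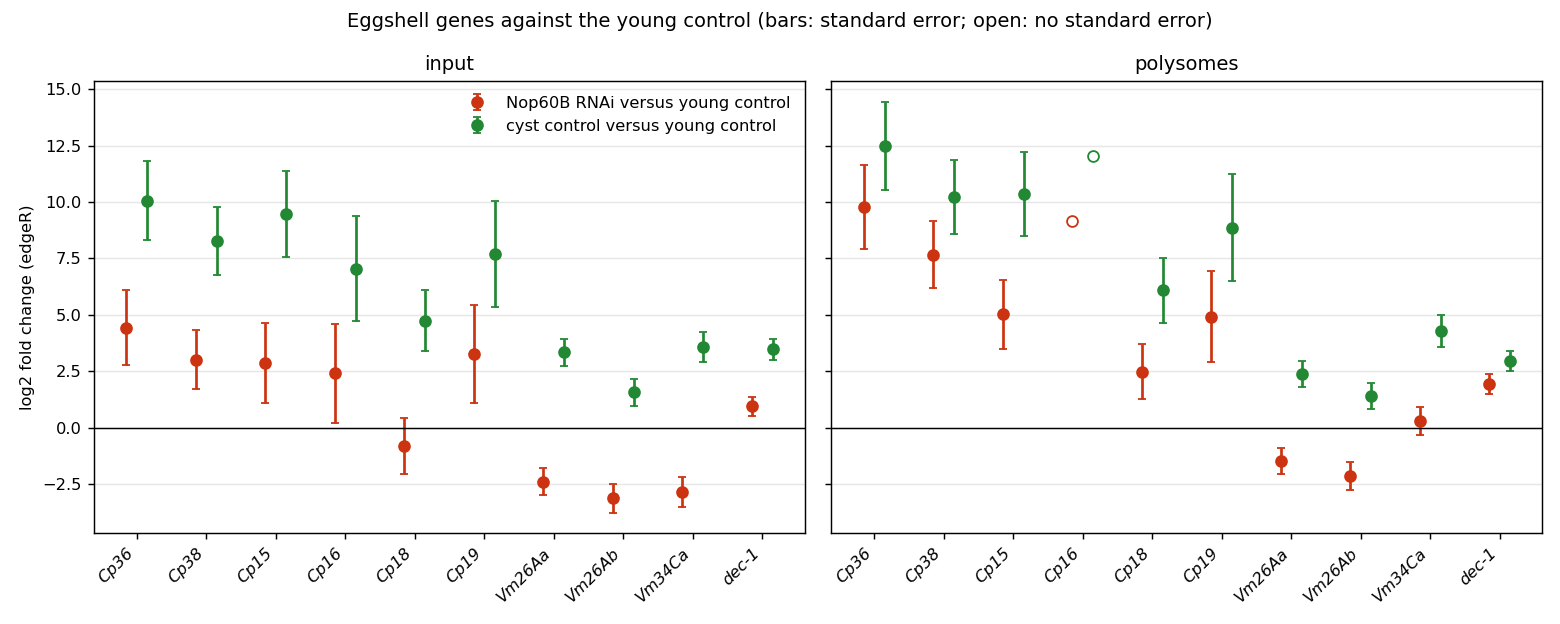
Log2 fold change of each gene in Nop60B RNAi (red) and in the cyst control (green) against the young control, in input (left) and polysomes (right), with bars for the standard error from edgeR. Both comparisons share the young control libraries, and Cp16 has no standard error in polysomes (open symbols) because both young control libraries had 0 counts. In Nop60B RNAi the vitelline membrane genes lie below 0 in input, while most chorion genes lie above 0.

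The cyst control was then compared with the young control. All 10 genes were called higher in input, where 9.85% of all genes were, and all 10 were called higher in polysomes, where 14% of all genes were. Only 1 chorion gene, Cp18, reached the filter's level in both libraries of a young control fraction. The other chorion genes entered the test through genotypes where they were higher, so the filter favoured their calls in advance. In input 6 of the 10 genes and in polysomes 8 of the 10 also had an edgeR adjusted p under 0.05. Of all 10035 genes, 208 in input and 304 in polysomes were higher by this rule. None of the 10 kept an adjusted p under 0.05 in every alternative fit, in either fraction. dec-1 rose by 3.47 ± 0.46 (log2) in input (adjusted p = 0.00838, edgeR) and by 2.96 ± 0.45 in polysomes (adjusted p = 0.0101). Vm34Ca rose by 3.57 ± 0.68 in input (adjusted p = 0.0228, edgeR) and Vm26Aa by 3.34 ± 0.61 (adjusted p = 0.0207). Vm26Ab rose by 1.57 ± 0.59 (adjusted p = 0.169), the smallest change of the 10. It lost its call without young control input replicate 1 or cyst control input replicate 1, and in the fit of only the libraries compared. Of the chorion genes in input, Cp15 had 9059 counts against 6 in the young control, a ratio of 889 (95% exact interval 408 to 2424), and Cp36 had 4607 against 2, a ratio of 1357 (375 to 11206). Cp18, which started highest in the young control, rose by 4.74 ± 1.36 (log2; adjusted p = 0.0762). The input count fell to 7 when replicate 2 of the cyst control inputs was left out, with Cp16, Cp18 and Cp19 no longer called, and Cp16 also lost its call without young control input replicate 1. In polysomes Cp19 lost its call without cyst control replicate 2, and Vm26Ab without either young control library, cyst control replicate 1 or Nop60B RNAi replicate 1. Vm26Ab in polysomes also lost its call in the fit of only the libraries compared, as did Cp16 in input. Heat shock genes were also higher in this control, with all 4 tested genes of the list called in both fractions and the 5 listed genes summing to 288 to 655 CPM in the young control and 13862 to 51068 CPM in the cyst control, and their part in the eggshell differences was not tested.

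Against the cyst control, Nop60B RNAi was lower for all 10 genes in input, where 10.2% of all genes were called lower, and for 8 of 10 in polysomes, where 16.7% were. Cp16 and Cp19 were the 2 genes not called in polysomes. The vitelline membrane genes had the lowest adjusted p-values among the 10. In input Vm34Ca fell by 6.42 ± 0.79 (log2; adjusted p = 0.00211, edgeR), Vm26Aa by 5.73 ± 0.68 (adjusted p = 0.00198) and Vm26Ab by 4.70 ± 0.68 (adjusted p = 0.00403). In polysomes they fell by 3.98 ± 0.70, 3.88 ± 0.62 and 3.55 ± 0.64, with adjusted p-values of 0.00772, 0.00537 and 0.00873. Cp15 fell by 6.59 ± 1.57 in input (adjusted p = 0.0408) and by 5.34 ± 1.47 in polysomes (adjusted p = 0.045). Only Vm34Ca and Vm26Aa in input kept an adjusted p under 0.05 in every alternative fit. dec-1 fell by 2.52 ± 0.44 in input (adjusted p = 0.0116) and by 1.03 ± 0.42 in polysomes (adjusted p = 0.139), and the latter was called in only 9 of 18 alternatives, being lost with DESeq2, without TMM and without replicate 1 of the cyst control polysomes among others. In input, Cp16 and Cp19 lost their calls without replicate 2 of the cyst control, where the difference of Cp16 changed sign to 0.56 (log2). Both also lost them without either Nop60B RNAi input and with a block for replicate number, and Cp19 without either Nop60B RNAi polysome library. Without replicate 2 of the cyst control polysomes, 4 genes were called in place of 8, and without either of the Nop60B RNAi polysome libraries the number was also 4. Other genes differed in the same comparison. All 4 tested heat shock genes and all 4 yolk genes were called lower in both fractions, as were 5 of 6 germline markers in input and 4 in polysomes. Of 6 hemocyte markers, 3 in input and 5 in polysomes were called higher, where 904 and 987 of all 10035 genes were. No muscle marker was called. The part of these differences in those of the eggshell genes was not tested.

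Set apart, the cyst control replicates differed in opposite directions for the 2 classes of eggshell gene. Every chorion gene was higher in replicate 2, in input by 5.95-fold (Cp36), 12.7-fold (Cp38), 10.8-fold (Cp18), 30.3-fold (Cp15), 26.5-fold (Cp19) and 71-fold (Cp16, with 5 counts in replicate 1). In polysomes the same ratios were 10.4, 4.31, 7.46, 13.8, 77.3 and 14.6, the last 2 of which rest on 9 and 11 counts in replicate 1. Every vitelline membrane gene was higher in replicate 1, in input by 1.83-fold (Vm26Aa), 1.99-fold (Vm26Ab) and 2.2-fold (Vm34Ca), and in polysomes by 2.7-fold, 3.82-fold and 3.56-fold. dec-1 was 1.18-fold higher in input and 2.74-fold higher in polysomes of replicate 1. With 1 library per replicate and fraction, these ratios have no replicate check, and no p-value is given. Of 6987 genes with a mean of at least 10 CPM, 4.94% in input and 27.3% in polysomes were at least 4-fold higher in replicate 2. Shares for smaller differences, such as those of the vitelline membrane genes and dec-1, are not given here.

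**Figure D3:**
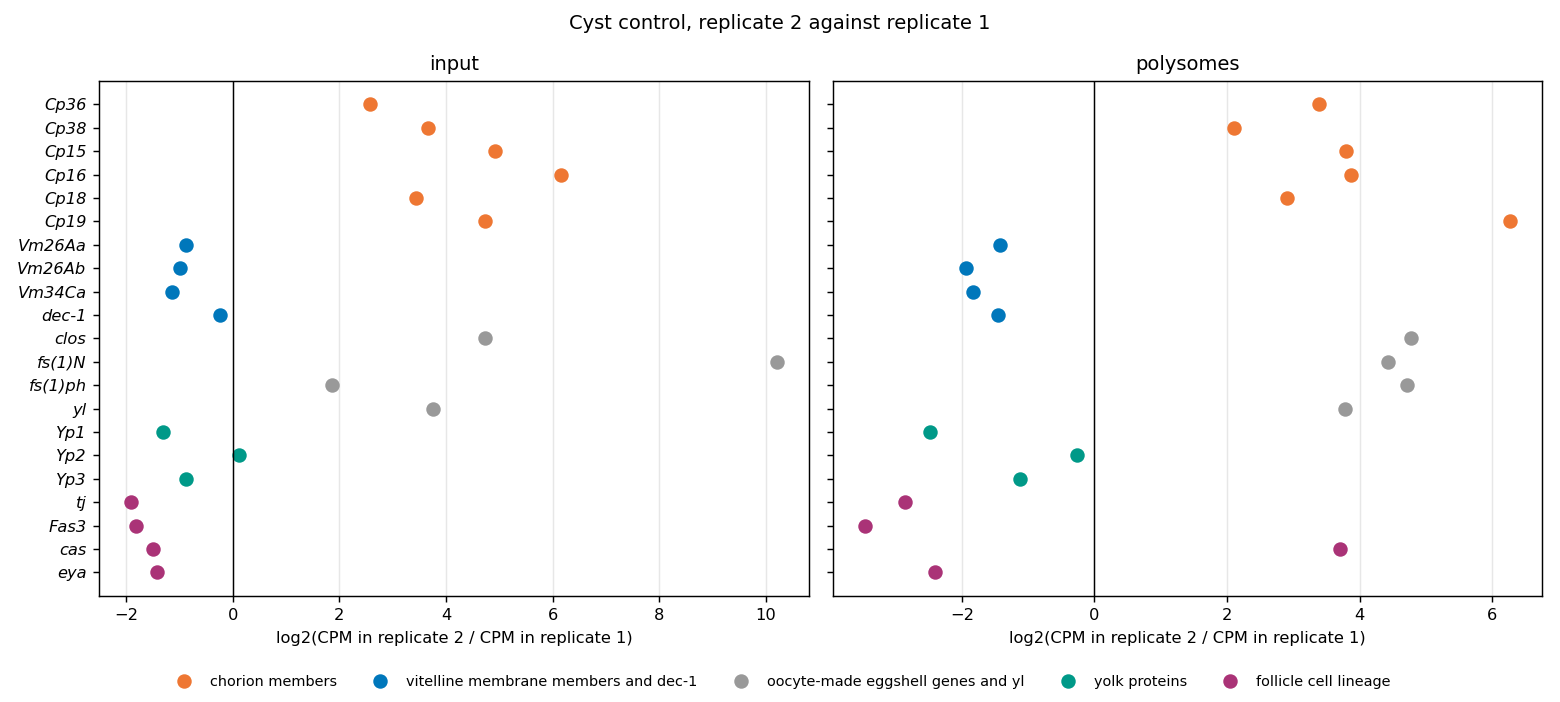
Log2 ratio of CPM in replicate 2 to CPM in replicate 1 of the cyst control, in input (left) and polysomes (right), for the chorion genes, the vitelline membrane genes with dec-1, oocyte-made eggshell genes with the yolk protein receptor gene yl, the yolk protein genes and follicle cell lineage markers. Chorion genes and oocyte-made genes lie to the right of 0 in both panels, and the vitelline membrane genes and dec-1 lie to the left.

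The share of chorion counts among chorion and vitelline membrane counts summarised this difference in each library. It was 8.21% (95% Wilson interval 7.74 to 8.7) in input and 8.68% (8.02 to 9.39) in polysomes of cyst control replicate 1, and 70.6% (70.1 to 71.1) and 77.6% (77.3 to 78) in replicate 2. In the young control the share was 3.37% and 3.04% in the inputs and 0.652% and 1.33% in the polysomes. In Nop60B RNAi it was 52.2% and 33.2% in the inputs and 39% and 56.6% in the polysomes, above all young control libraries and between both cyst control replicates. These intervals cover counting error only, which was small beside the difference between the cyst control replicates.

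Other genes differed between the same replicates. Oocyte-made eggshell genes were higher in replicate 2, clos by 26.8-fold and fs(1)ph by 3.64-fold in input, as was osk, an oocyte mRNA, by 46.8-fold. The 5 other germline markers ranged from 1.02-fold (grk) to 3.04-fold (bru1) higher in the same input, and in polysomes bru1 was 1.07-fold and osk 23.6-fold higher. The follicle cell lineage markers tj, Fas3, cas and eya were 2.68-fold to 3.72-fold higher in input of replicate 1. In polysomes tj, Fas3 and eya were 5.3-fold to 11-fold higher in replicate 1, but cas was 13.1-fold higher in replicate 2, over 4 counts in replicate 1. The muscle markers summed to 18101 CPM in input and 26750 CPM in polysomes of replicate 1, against 3980 and 3629 CPM in replicate 2, and the hemocyte markers to 839 and 488 CPM against 303 and 331 CPM. The part of these differences in those of the 10 genes was not tested.

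The genes correlated by class. Over the 12 libraries, which share lysates and genotypes, the pairwise Pearson r of log2(CPM + 1) was 0.904 to 0.988 among the chorion genes and 0.893 to 0.962 among the vitelline membrane genes, against 0.168 to 0.744 between the classes. dec-1 had r of 0.604 to 0.86 with the chorion genes and 0.409 to 0.719 with the vitelline membrane genes. The genes outside the group whose pattern was most like its mean were Alh (r = 0.972), Cp7Fb (0.957), Sos (0.945), swm (0.945), CG3356 (0.944), CG5290 (0.943), CG8042 (0.942) and Culd (0.942). Of these only Cp7Fb is an eggshell gene of the lists used here. These correlations over 12 libraries are descriptions without a test.

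Polysome association was examined within each genotype. In the young control, Vm26Aa (1.42 ± 0.57, log2) and Vm26Ab (1.32 ± 0.59) were called higher in polysomes than in input, where 3 genes in all, or 0.0299%, were. In Nop60B RNAi, 5 genes were called higher in polysomes (Cp36, Cp38, Vm26Aa, Vm26Ab and Vm34Ca), where 0.698% of all genes were. The edgeR adjusted p-values were 1 for both genes in the young control and 0.322 to 0.502 for the 5 genes in Nop60B RNAi. In the cyst control 0 of the 10 were called by edgeR or by DESeq2, and 0 had an unadjusted P under 0.05 in edgeR, where 2.74% of all genes were called higher. The call of Vm26Ab in the young control held in only 10 of 19 alternatives and was lost with DESeq2. A fit with each lysate as a block pairs the input and polysome libraries of a number. Under it, 9 genes were called in Nop60B RNAi and only dec-1 was not. Cp15 and Vm34Ca were called in the cyst control, both with an edgeR adjusted p of 0.657. The shares of all genes called under this block are not given here, so these counts have no background. Under that block Vm34Ca in Nop60B RNAi had an edgeR adjusted p of 0.000943, and the other called genes had 0.0782 to 0.641.

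Vm34Ca had the most even change. Its polysome CPM was 13.1 and 13.9 times its input CPM in the Nop60B RNAi lysates, 1.66 and 1.33 times in the young control lysates and 2.79 and 1.72 times in the cyst control lysates. The polysome-to-input ratio was thus higher in both Nop60B RNAi lysates than in any other. Cp36 had ratios of 5.53 and 40.9 in Nop60B RNAi, the latter over 11 input counts, and 0.817 and 1.43 in the cyst control. Cp15 had ratios of 6.06 and 7.75 in Nop60B RNAi and 6.04 and 2.76 in the cyst control, the nearest of which were almost equal. Vm26Aa had 7.1 and 2.8 in Nop60B RNAi against 3.15 and 2.11 in the young control, which overlapped. dec-1 had 1.59 and 2.25 in Nop60B RNAi, 0.937 and 0.96 in the young control and 0.908 and 0.392 in the cyst control.

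**Figure D4:**
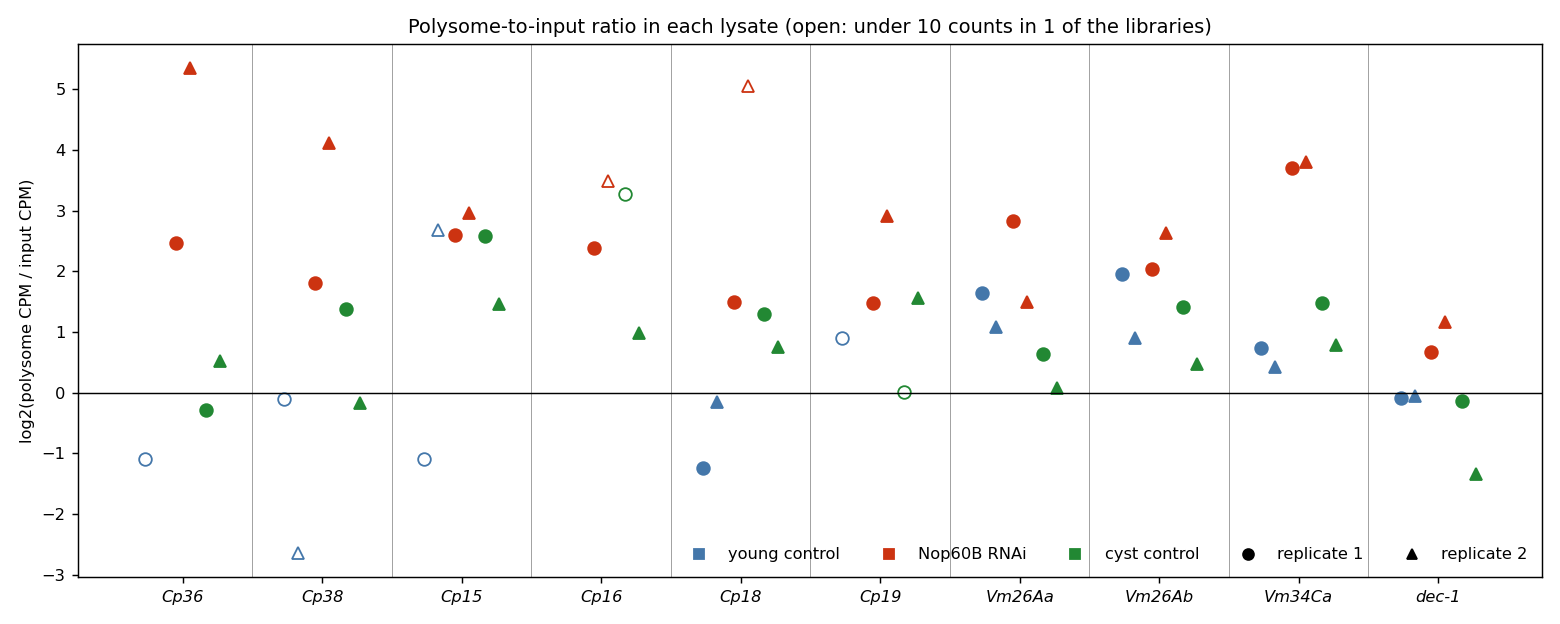
Log2 ratio of polysome CPM to input CPM in each lysate, by genotype (color) and replicate (symbol), with open symbols where a library had under 10 counts. Ratios with 0 counts in a library are not drawn. Vm34Ca is the gene with the tightest and most separate pair of Nop60B RNAi lysates.

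The change of this ratio between genotypes was tested as an interaction. Cp38 (4.65 ± 1.95, log2) and Vm34Ca (3.15 ± 0.91) were called higher in Nop60B RNAi than in the young control, where 0.558% of all genes were. Vm34Ca was called in 19 of 19 alternatives and Cp38 in 13, and the latter was lost without TMM. Between the cyst control and the young control 0 of the 10 were called by edgeR or by DESeq2, and 0 had an unadjusted P under 0.05 in edgeR, where 0.817% of all genes were called higher. All these adjusted p-values were 1 in edgeR. With the lysate as a block, 6 genes were called in the first comparison (Cp15, Cp16, Cp18, Cp36, Cp38 and Vm34Ca) and Cp16 in the second. The lowest edgeR adjusted p was 0.0978, for Vm34Ca. The shares of all genes called under this block are likewise not given here. The young control ratios of Cp15, Cp16, Cp36 and Cp38 rest on at most 20 counts per library. These genes passed the filter on low counts only through the other genotypes, where they were higher, so their calls are not independent of that filter.

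Related genes were described from lists. Of the 16 other eggshell genes, 5 were called lower and 0 higher in input of Nop60B RNAi against the young control, and 3 were called lower and 3 higher in polysomes. Among all genes the shares called lower were 6.35% in input and 11.7% in polysomes, and the shares called higher 11.5% and 14.1%, so the polysome counts are near these shares. The 6 most abundant by mean CPM fell into those made by the oocyte and those made by follicle cells. The oocyte-made genes clos and fs(1)ph, whose products act in the vitelline membrane in signalling at the egg's ends, were lower in input: clos fell by 5.96 (log2; adjusted p = 0.0782, edgeR), fs(1)ph fell by 5.82 (adjusted p = 0.0386) and a further such gene, fs(1)N, fell by 6.03 (adjusted p = 0.186). Cad99C, a cadherin of follicle cell microvilli, fell by 1.57 (adjusted p = 0.118). Cp7Fc, a chorion gene with the hexamer in its promoter, had at most 0.498 CPM in the young control, 0.572 to 7.33 CPM in Nop60B RNAi, 2.37 and 82.3 CPM in input and 7.69 and 161 CPM in polysomes of the cyst control. As for the 6 chorion genes, both its young control and its cyst control replicate 1 levels were far below cyst control replicate 2. yellow-g, needed for eggshell rigidity, stood at 1.45 to 2.74 CPM in the young control, 16.4 to 29.2 CPM in Nop60B RNAi, and 0.103 and 58 CPM in the cyst control inputs, and was called in neither fraction of Nop60B RNAi.

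Of 10 stage and patterning genes of follicle cells measured, 2 were called higher and 2 lower in input of Nop60B RNAi against the young control, which for so few genes is near the shares over all genes (11.5% and 6.35%). ndl, a protease made by follicle cells for dorsoventral patterning, fell by 4.29 (log2; adjusted p = 0.0138, edgeR), and peb, a zinc finger factor of follicle cells, fell by 2.10 (adjusted p = 0.124). Cyp18a1, which inactivates ecdysone, rose by 2.52 (adjusted p = 0.0479), and Mmp2, a matrix protease of late follicle cells, rose by 2.83 (adjusted p = 0.0847). EcR, the ecdysone receptor, and ttk, a repressor in follicle cells, were not called, at 19.4 to 34.9 CPM and 126 to 221 CPM in Nop60B RNAi against 22.4 to 34.8 CPM and 124 to 150 CPM in the young control. Of the 4 yolk genes, Yp3, which encodes a yolk protein, fell by 1.37 (log2) in input (adjusted p = 0.178, edgeR), and yl fell by 7.66 (adjusted p = 0.0204). Yp1, Yp2 and Yp3 were called higher in the cyst control than in the young control in both fractions, by 3.41 to 3.85 (log2) in input.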

How the data were processed

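Polysome-seq libraries of ovaries were made from poly(A)-selected RNA with a stranded kit. The authors aligned 75-bp reads to dm6 (Release 6) and deposited raw counts per FlyBase gene. Per the submitters' processing notes, HISAT2 2.1.0, featureCounts 1.4.6 and edgeR were used. Strand setting and treatment of multiply aligned reads are not given in the sources used here. Gene models came from Ensembl release 115 (16647 of 17023 IDs) and names from RefSeq.

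The analysis used edgeR 4.0.16 (R 4.3.3): filterByExpr on the 6 groups (10035 genes), TMM, 1 mean per group over all 12 libraries and quasi-likelihood tests. Calls used fold at least 2 with unadjusted P under 0.05, as in the study's polysome-seq, beside Benjamini-Hochberg values. The same rule was used for input. Groups followed the labels. With 2 libraries per group, no permutation test can reach 0.05. Nothing in the sources ties replicates to separate crosses, so p-values measure only the spread between these libraries. CPM used TMM-scaled library sizes. Standard errors were derived from the edgeR F statistic. DESeq2 1.42.0, other scalings, no filter, fewer libraries, leaving out each library and replicate blocks were alternatives. Wilson and exact intervals used scipy 1.17.1. Motifs were searched with Python 3.11.15. Scripts were tested on simulated data.

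Input and polysome libraries of the same genotype and number were taken as coming from the same lysate, since the study kept part of each lysate as input. Across genes, the replicate 1 minus replicate 2 difference of input correlated with that of polysomes at r = 0.286 (cyst control), 0.0362 (young control) and -0.000803 (Nop60B RNAi). A lysate block is given where it changes a count.

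The members, lists and motif were chosen with earlier results of these data known. All 10 genes are named, with up to 6 genes per list by mean CPM over 12 libraries, 8 genes by correlation (mean of at least 10 CPM), and Nop60B, CG33223, Vm26Ac, Vm32E and Vml chosen after seeing values. The symbols br, vas, nos and wupA of the lists were not matched and are not analysed here.
Fat body markers summed to 5.58 to 12.3 CPM in the young control, 20.8 to 76.8 CPM in Nop60B RNAi and 21 to 38.6 CPM in the cyst control, and spermatheca markers to 0 to 6.06, 3.91 to 195 and 0.363 to 4.64 CPM. Follicle cell lineage markers (tj, Fas3, cas and eya) were present in all libraries, at 508 to 869, 790 to 1258 and 190 to 1410 CPM.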

Additional observations from a re-analysis of the deposited data

Results flagged for a closer look

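Polysome-to-input ratios of 4 genes were flagged between genotypes, by a call in the interaction test or by the side of 1 on which each lysate lay. The interaction test called 0.558% of all genes higher in Nop60B RNAi than in the young control. For the other rule no share over all genes is given here. Cp38 (4.65, log2) and Vm34Ca (3.15) changed more in Nop60B RNAi than in the young control by edgeR's interaction test, both with an adjusted p of 1. For Cp38 the young control had at most 8 counts per library, and the gene passed the filter on low counts only through the other genotypes.

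For other genes, every lysate of a genotype lay on the opposite side of a ratio of 1 from every lysate of another. Cp18 was higher in polysomes in both Nop60B RNAi lysates and both cyst control lysates and lower in both young control lysates. The mean log2 ratios differed by 3.98 and 1.72, and the interaction test did not pass for either (adjusted p = 1, edgeR). In Nop60B RNAi the ratio of Cp18 was 2.82 in replicate 1 and 33.4 in replicate 2, the latter over 6 input counts. dec-1 was higher in polysomes in both Nop60B RNAi lysates and lower in both lysates of either control, though its young control ratios, 0.937 and 0.96, were close to 1. The mean differed by 1.00 from the young control (interaction adjusted p = 1, edgeR) and by 1.66 from the cyst control, where the difference was not tested.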

How the results depend on the processing

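The precision was limited by 2 libraries per group and, for chorion genes, by 0 to 8 counts in most young control libraries. Leaving out single libraries gave 3 to 5 called genes for Nop60B RNAi against the young control in input and 6 to 9 in polysomes, 8 to 10 and 4 to 9 against the cyst control, and 7 to 10 and 9 to 10 for the cyst control against the young control. For polysomes against input the ranges were 0 to 2 in the young control, 3 to 7 in Nop60B RNAi and 0 to 4 in the cyst control, and for the change of that ratio 1 to 4 in Nop60B RNAi and 0 to 3 in the cyst control. In input of Nop60B RNAi against the young control, 3 genes were called without young control replicate 1 or without Nop60B RNAi replicate 1. For polysomes against input, 3 genes were called in Nop60B RNAi without its input replicate 2, and 4 in the cyst control without its input replicate 2. In the 6 comparisons between genotypes, apart from single libraries left out, no alternative moved a count by over 1.5 times. The shares of all genes called with a single library left out are not given here, so counts from such fits have no background.

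For polysomes against input in Nop60B RNAi (5 called), no filter and the lysate block each gave 9. In the cyst control (0 called), no filter gave 4, the lysate block 2 and the replicate number as a block 1. In the young control (2 called), DESeq2 and the number block each gave 1. For the change of the ratio in Nop60B RNAi (2 called), no filter and the lysate block each gave 6, DESeq2 and the fit of only the libraries compared each gave 5, and library sizes without TMM gave 1. In the cyst control (0 called), no filter and the lysate block each gave 1. The shares of all genes called under these alternatives are not given here. The cause was not tested. The replicate number, which does not pair genotypes, changed no other count by over 1.5 times.

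Of 110 fold changes (10 genes in 11 comparisons), 25 changed sign under at least 1 alternative, 1 of them called. The called one was Cp16 in input of Nop60B RNAi against the cyst control, which ranged from -5.62 to 0.56 (log2) over the single libraries left out, the highest without cyst control input replicate 2. Against the young control, Cp18 in input of Nop60B RNAi ranged from -2.74 to 0.02, the highest without Nop60B RNAi input replicate 2, and Vm34Ca in polysomes from -0.40 to 0.75, the lowest without Nop60B RNAi polysome replicate 1. In polysomes against the cyst control, Cp16 ranged from -3.77 to 0.16 and Cp19 from -4.94 to 1.38, both highest without cyst control polysome replicate 2.

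For polysomes against input in the young control, with single libraries left out, Cp15 ranged from -0.40 to 2.05, Cp16 from -5.03 to 0.00, Cp19 from -4.80 to 1.40 and Cp38 from -2.82 to 0.20, and dec-1 was 0.16 without TMM. In the cyst control Cp15 ranged from -1.43 to 5.52, Cp16 from -1.95 to 6.25, Cp18 from -1.32 to 3.40, Cp19 from -3.82 to 5.34, Cp36 from -2.14 to 2.26 and Cp38 from -1.44 to 2.82, each lowest without polysome replicate 2, while Vm26Aa (-0.42 to 0.98) and Vm26Ab (-0.10 to 1.80) were lowest without polysome replicate 1. For the change of the ratio from the young control to the cyst control, Cp15 ranged from -2.08 to 4.87, Cp18 from -0.82 to 3.91, Cp19 from -4.18 to 6.33, Cp36 from -0.15 to 4.29, Cp38 from -0.09 to 4.74, Vm26Ab from -1.42 to 0.45 and Vm34Ca from -0.46 to 1.38. The summed level of the 10 genes averaged 1067 CPM over libraries, and 1097 CPM without TMM.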
